A study of Mus musculus with 2 samples.

Results

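The G2/M and mitosis genes are a list of 52 genes whose products drive cells from the end of DNA replication through chromosome segregation to the separation of the daughter cells. The members were taken as listed, without regard to their values, and all 52 had rows in both count tables, out of 16665 genes listed in either. They were read in live-sorted cells of enteroids, the crypt-derived cultures of intestinal epithelium in which stem cells divide and give rise to enterocytes and secretory cells. The data were 1 control and 1 Taf4IEC library of 10X Genomics single-cell RNA-seq, which tags each captured molecule at its 3′ end with a unique molecular identifier (UMI), so that levels of different genes compare molecules and need no scaling by length. The question was how gene expression differed once Taf4, which belongs to the TFIID complex that assembles on promoters, was to be deleted in the cells of these cultures.

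Both cultures were grown from the ileum of C57Bl6/129sv mice 4 months of age and, by the methods, carried the floxed allele Taf4 lox/lox. Taf4IEC enteroids also carried VilCreERT2, a Cre recombinase expressed from the villin promoter in the intestinal epithelium and active only in the presence of tamoxifen, and received 1 µM 4-hydroxytamoxifen (4-OHT) for 3 days from day 5 of culture until harvest on day 8. By the methods, control enteroids had the floxed allele without Cre and were given 4-OHT too. The control sample is labelled as wild type and as given ethanol, so the Cre, the drug and the deletion cannot be told apart here. The number of mice behind each culture was not given in the sources used here.

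With 1 library per condition no difference between conditions could be tested. Each value is the number of UMIs of a gene per 10000 UMIs of all genes, summed over the stated cells, and ratios are log2 of Taf4IEC over control. The 95% intervals (exact Poisson for a level, exact conditional binomial for a ratio, and Clopper-Pearson for the share of cells) take in the error of counting alone and not the spread between cultures. Those for levels and ratios treat UMIs as independent and so leave out the spread between cells too. The control library held 2563 cells with a median of 16749 UMIs, and the Taf4IEC library 1811 cells with a median of 2254, and 2 cell barcodes occurred in both. Cells with under 2000 UMIs made up 17.3% of the control and 49.1% of the Taf4IEC cells. The epithelial genes Epcam and Vil1 were present in both libraries, at 12.6 and 1.06 per 10000 in the control and at 11.6 and 2.09 in Taf4IEC. The immune and stromal genes Ptprc, Cd3e, Cd79a, Col1a1 and Col3a1 had 3 UMIs together in the control and 4 in Taf4IEC. Transcripts of Taf4 itself were not fewer per 10000 UMIs in the library labelled Taf4IEC, with 278 UMIs (0.0696 per 10000) in the control and 236 (0.0944) in Taf4IEC. UMIs tagged at the end of a transcript need not show whether an earlier part of the gene was deleted, and the deletion was not tested here. The nuclear transcript Malat1 stood at 44.2 per 10000 in the control and at 74.0 in Taf4IEC, and the ribosomal-RNA-rich Gm42418 at 24.7 and 41.8. Their part in the results below was not tested.

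Progress into mitosis rests on the kinase Cdk1 with its cyclins, and exit from it on the anaphase-promoting complex, which marks cyclins for destruction. In between, microtubules form the spindle, kinetochores tie chromosomes to it under the watch of a checkpoint, and the chromosomal passenger complex corrects attachments and then directs cytokinesis. Most of these genes are transcribed in a wave in late S phase and G2 from promoters that often hold CCAAT boxes and a cell cycle genes homology region (CHR), a short element bound by MuvB-based complexes that repress in quiescent cells and activate in dividing ones. In the intestine this wave is found in crypt stem and transit-amplifying cells and is over in villus cells.

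The promoters show this arrangement in letters, and are printed for members picked as examples. Those of Cdk1, Ube2c, Top2a and Hmgb2 stand for genes at least 2-fold lower in Taf4IEC. That of Cdc20 stands for a smaller difference, at -0.90. All of these hold the CHR letters near the start, but not every lower member does, and Cks2, also lower, had no such match in the bases searched. Those of Tubb4b, Psrc1 and Gtse1 stand for the members that were not lower. Each line gives the 110 bases before a transcription start in the gene's direction, from RefSeq on GRCm38.p6, with the CHR letters TTTGAA and the CCAAT letters, on either strand, in capitals where they lie whole within these bases.
Cdk1 (chr10:69352913-69353022, minus strand): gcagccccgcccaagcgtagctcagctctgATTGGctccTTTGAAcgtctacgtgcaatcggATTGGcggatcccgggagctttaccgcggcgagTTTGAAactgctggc
Cdc20 (chr4:118437344-118437453, minus strand): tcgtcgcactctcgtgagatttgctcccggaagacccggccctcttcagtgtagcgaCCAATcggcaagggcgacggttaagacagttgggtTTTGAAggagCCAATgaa
Ube2c (chr2:164769819-164769928, plus strand): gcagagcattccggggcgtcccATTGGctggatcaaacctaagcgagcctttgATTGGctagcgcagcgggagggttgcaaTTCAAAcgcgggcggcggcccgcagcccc
Top2a (chr11:99024190-99024299, minus strand): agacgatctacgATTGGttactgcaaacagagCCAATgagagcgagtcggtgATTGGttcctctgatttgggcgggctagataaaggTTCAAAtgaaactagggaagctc
Hmgb2 (chr8:57511733-57511842, plus strand): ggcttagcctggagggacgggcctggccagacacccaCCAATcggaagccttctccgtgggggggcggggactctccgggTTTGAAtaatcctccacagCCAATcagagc
Tubb4b (chr2:25224703-25224812, minus strand): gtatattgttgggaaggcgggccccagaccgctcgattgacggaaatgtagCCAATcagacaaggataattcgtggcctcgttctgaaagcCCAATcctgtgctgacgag
Psrc1 (chr3:108383694-108383803, plus strand): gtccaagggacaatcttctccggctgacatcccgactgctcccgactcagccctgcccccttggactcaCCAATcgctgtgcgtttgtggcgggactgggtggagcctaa
Gtse1 (chr15:85859597-85859706, plus strand): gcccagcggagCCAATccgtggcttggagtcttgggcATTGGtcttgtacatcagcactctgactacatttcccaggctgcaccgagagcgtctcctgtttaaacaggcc

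RefSeq promoter windows from 250 bases before to 50 after the start were at hand for 46 of the 52 members, as 51 promoters. The letters TTTGAA occurred on either strand in 34 of these 51 promoters (66.7%) and in 17.9% of all 32851 promoters of that length, and CCAAT in 38 of 51 (74.5%) and in 37.4% of all. The ends of these motifs can share bases. TTTGAA began 15 and 71 bases before the start in Cdk1, 18 before it in Cdc20 and 30 before it in Hmgb2, and, on the opposite strand, 29 before it in Ube2c and 23 before it in Top2a. In Tubb4b the single match began 198 bases before the start, and in Psrc1 and Gtse1 these windows held no match, which says only that the letters are not in these windows. In the whole window TTTGAA stood in 23 of the 32 members with a promoter that were at least 2-fold lower over all cells, and in 10 of the 14 others. Within 100 bases before to 50 after the start it stood in 21 of the 32 and in 6 of the 14.

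Over all cells most members were lower in the Taf4IEC library. Summed over the 52 genes, 38.1 of 10000 UMIs in the control and 22.1 in Taf4IEC came from members, or 32.3 and 13.9 without Tubb4b, the most abundant of them. The median log2 ratio was -1.37, beside 0.16 over the 10002 genes with at least 200 UMIs in both libraries together, a minimum that all 52 members met. At least 2-fold lower were 38 members, where 3.48% of all genes were, and 0 members were at least 2-fold higher, where 5.52% were. The members that were not lower were Gtse1, Psrc1 and Tubb4b, 3 of 52, where 65.3% of all genes had a log2 ratio of 0 or above. Set against the median of all genes, which lay 0.16 above 0, the members' median was -1.52, with 41 at least 2-fold lower and 3 not lower. Across the members the ratio spanned from -2.38 for Aurkb to 0.89 for Gtse1. These sums give deep cells the most weight, and the median came to -0.22 when each cell counted equally and to -0.11 when each cell was thinned to 500 UMIs, as described further on.

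**Figure D1:**
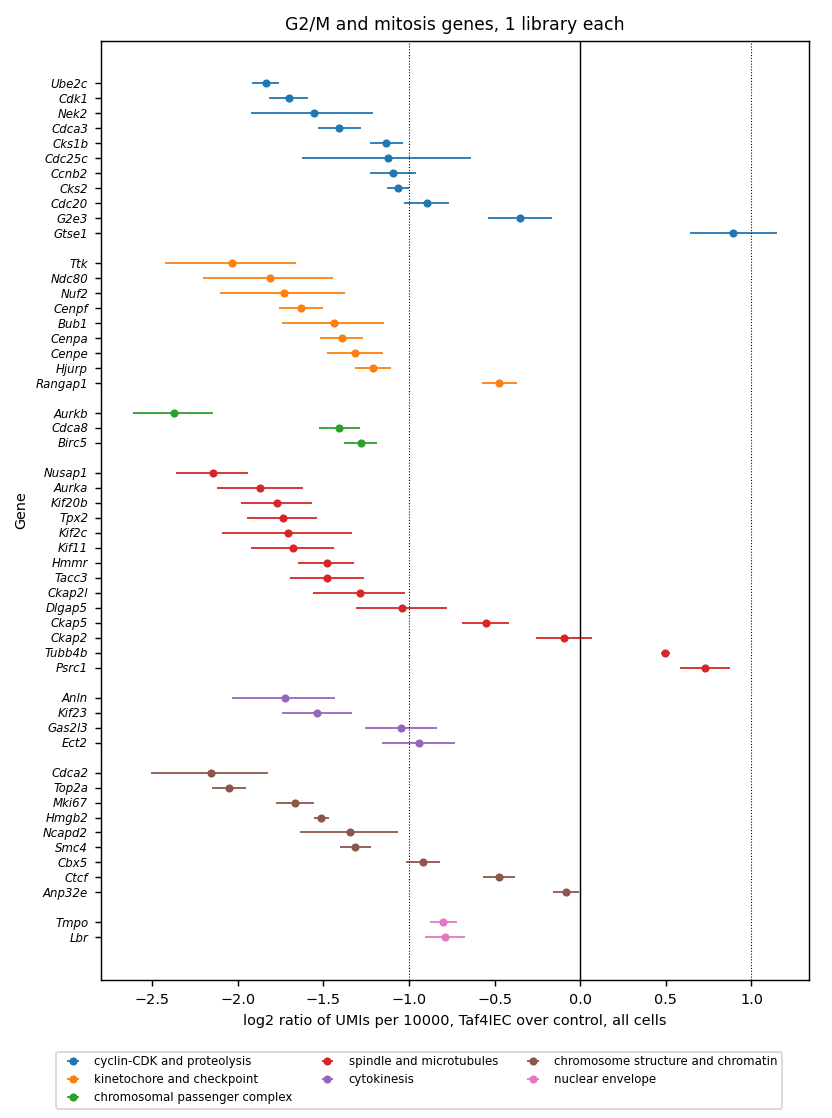
Log2 ratio of UMIs per 10000, Taf4IEC over control, for each of the 52 members over all cells (1 library each), with 95% intervals for counting error, coloured by role. Dotted lines mark 2-fold in either direction; 38 members lie at or left of the lower one, and Gtse1, Psrc1 and Tubb4b lie right of 0.

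Among cyclin-CDK and proteolysis genes, 8 of 11 were at least 2-fold lower, with a median log2 ratio of -1.12. Ube2c (chromosome 2, 164769929 to 164772902), the ubiquitin-conjugating enzyme of the anaphase-promoting complex, had 2.30 UMIs per 10000 in the control (2.25 to 2.35) and 0.643 in Taf4IEC (0.612 to 0.675), a log2 ratio of -1.84 (-1.92 to -1.76). Cks2 (chromosome 13, 51645232 to 51650662), a small subunit of cyclin-dependent kinases, went from 2.00 to 0.958, a log2 ratio of -1.06 (-1.13 to -1.0). The kinase Cdk1 itself was at 0.996 and 0.306, and Ccnb2, a B-type cyclin, at 0.488 and 0.229. The remaining members of this group lay between -1.56 for Nek2, a centrosome kinase, and -0.35 for the ubiquitin ligase G2e3, apart from Gtse1. The smallest count of the list was that of Cdc25c, the phosphatase that activates Cdk1, with 160 control and 46 Taf4IEC UMIs.

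Of the 9 kinetochore and checkpoint genes 8 were at least 2-fold lower (median -1.44). Hjurp (chromosome 1, 88258856 to 88277644), the chaperone that deposits the centromeric histone Cenpa, was at 0.880 per 10000 in the control and 0.381 in Taf4IEC, a log2 ratio of -1.21 (-1.31 to -1.10). Cenpa had a ratio of -1.39. Ttk (chromosome 9, 83834651 to 83872390), the kinase at the head of the spindle checkpoint, had 438 and 67 UMIs, a ratio of -2.03 (-2.43 to -1.66), and the checkpoint kinase Bub1 -1.44. The outer kinetochore proteins Ndc80 and Nuf2, partners in the complex that grips microtubules, stood at -1.81 and -1.73. The exception in this group was Rangap1 (chromosome 15, 81704248 to 81730798), which stimulates GTP hydrolysis by Ran and also acts in nuclear transport, with 0.632 and 0.455 per 10000, a ratio of -0.47 (-0.57 to -0.37). Hjurp overlaps Mroh2a in the annotation, so its UMIs could be split between them.

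All 3 members of the chromosomal passenger complex were at least 2-fold lower. Aurkb (chromosome 11, 69045624 to 69051664), its kinase, had 1418 UMIs in the control and 171 in Taf4IEC, or 0.355 and 0.0684 per 10000, which was the lowest ratio of the list at -2.38 (-2.61 to -2.15). The subunits that place the kinase on chromosomes had ratios nearer to 0. Birc5 (chromosome 11, 117849237 to 117855743), survivin, went from 1.02 to 0.419, a ratio of -1.28 (-1.38 to -1.18), and Cdca8 (chromosome 4, 124918465 to 124936917), borealin, from 0.746 to 0.281, a ratio of -1.41 (-1.53 to -1.29). The intervals of both subunits lay wholly above that of their kinase, but this order did not hold in every way of weighing cells. With each cell weighted equally Aurkb stood at -0.102, Birc5 at -0.114 and Cdca8 at -0.445, and with each cell thinned to 500 UMIs at 0.0704, -0.0218 and -0.373.

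The spindle and microtubule genes were the most mixed group, with 10 of 14 at least 2-fold lower and Tubb4b and Psrc1 not lower. Nusap1 (chromosome 2, 119618298 to 119650165), which bundles spindle microtubules, had 0.385 and 0.0868 per 10000, a ratio of -2.15 (-2.36 to -1.94), and the kinase Aurka with its activator Tpx2 -1.87 and -1.74. The kinesins Kif11, Kif2c and Kif20b lay between -1.77 and -1.68. Ckap5 (chromosome 2, 91526747 to 91620679), a microtubule polymerase with roles outside mitosis, was at 0.376 and 0.256, a ratio of -0.55 (-0.69 to -0.42). Ckap2, a spindle-associated protein, differed by less than counting error at -0.10 (-0.26 to 0.07), whereas its relative Ckap2l was at -1.29. Nusap1 overlaps Oip5, and Ckap5 overlaps F2, in the annotation.

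In cytokinesis 3 of 4 genes were at least 2-fold lower. Kif23 (chromosome 9, 61917277 to 61946810), the kinesin of the central spindle, had 0.280 and 0.0964 per 10000, a ratio of -1.54 (-1.74 to -1.34). Gas2l3 (chromosome 10, 89408822 to 89443980), which links actin to microtubules, had 0.203 and 0.0984, a ratio of -1.05 (-1.26 to -0.84). Anln, a scaffold of the contractile ring, was at -1.73 and Ect2, the activator of RhoA at the division plane, at -0.94.

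Chromosome structure and chromatin genes were at least 2-fold lower in 6 of 9 cases. Hmgb2 (chromosome 8, 57511843 to 57515999), an abundant DNA-bending protein, went from 5.63 per 10000 in the control to 1.97 in Taf4IEC, a ratio of -1.51 (-1.56 to -1.47). Top2a (chromosome 11, 98992947 to 99024199), the topoisomerase that untangles sister chromatids, went from 1.56 to 0.377, a ratio of -2.05 (-2.15 to -1.95). Cdca2 (chromosome 14, 67673180 to 67715841), which brings a phosphatase to chromatin as cells leave mitosis, had 592 and 83 UMIs, a ratio of -2.16 (-2.51 to -1.82). The proliferation marker Mki67, which coats mitotic chromosomes, stood at -1.67 and the condensin subunit Smc4 at -1.31. The other members, which also serve cells that do not divide, were Cbx5 at -0.92, the insulator protein Ctcf at -0.47 and the histone chaperone Anp32e at -0.08 (-0.16 to -0.01).

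Both nuclear envelope genes were lower by less than 2-fold. Tmpo (chromosome 10, 91147571 to 91181752), which ties lamins to chromatin, had 1.21 and 0.695 per 10000, a ratio of -0.80 (-0.88 to -0.72). Lbr (chromosome 1, 181815315 to 181842401), the lamin B receptor, had 0.580 and 0.335, a ratio of -0.79 (-0.91 to -0.68).

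The members that were not lower included the most abundant of the list. Tubb4b (chromosome 2, 25222158 to 25224702), a beta-tubulin, had 23155 in the control and 20443 in Taf4IEC, or 5.80 (5.72 to 5.87) and 8.18 (8.07 to 8.29) per 10000, a ratio of 0.50 (0.47 to 0.52). Psrc1 (chromosome 3, 108383804 to 108388231), which regulates microtubule dynamics at the spindle, had 764 and 793 UMIs, or 0.191 and 0.317 per 10000, a ratio of 0.73 (0.59 to 0.88). Gtse1 (chromosome 15, 85859691 to 85876573), a microtubule-bound protein of G2 and M phase that also acts on p53, had 242 and 281 UMIs, or 0.0606 and 0.112 per 10000, a ratio of 0.89 (0.64 to 1.15). For all 3 genes the intervals of the levels in the 2 libraries did not overlap, and the ratio was above 0 in each of the 12 other ways of computing it, from 0.31 to 0.78 for Tubb4b, 0.55 to 1.72 for Psrc1 and 0.56 to 2.45 for Gtse1. Tubb4b belongs to a family of near-identical coding sequences and overlaps Fam166a.

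Other mitosis genes were lower over all cells too. A further list of 26 mitosis genes outside the 52, called anchor genes below because they served to pick cells, had a median log2 ratio of -1.61, with 25 of 26 at least 2-fold lower. The anchor gene with the most UMIs, the condensin subunit Smc2, stood at 0.718 and 0.248 per 10000 (-1.53). Of another 26 mitosis genes 25 reached 200 UMIs, with 17 at least 2-fold lower and a median of -1.29. The highest-count gene there, the checkpoint protein Bub3, was at -0.59, and Depdc1b, the gene under the minimum, had 59 and 8 UMIs. None of these 52 further genes had a ratio of 0 or above in these libraries.

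Transcription regulators of mitosis genes differed by role. The factors that themselves cycle were lower, Foxm1 with 205 control and 47 Taf4IEC UMIs, a ratio of -1.45 (-1.94 to -0.98), and Mybl2 (B-Myb) with 273 and 68, a ratio of -1.33 (-1.73 to -0.94). The MuvB core subunits Lin9, Lin54 and Rbbp4 stood at -0.61, -0.62 and -0.44, and Lin37 and Lin52 at 0.16 and -0.20. The pocket proteins parted, with Rbl1 (p107) at -0.72 and Rbl2 (p130) at 0.45 (0.17 to 0.73). E2f4 and E2f5, the E2F proteins of the repressive complexes, were at 0.09 each, and their partner Tfdp1 at -0.52. The subunits of NF-Y, which binds CCAAT boxes, were at -0.24 for Nfya, -0.01 for Nfyb and -0.01 for Nfyc. Of these 15 genes, 14 reached 200 UMIs, of which 2 were at least 2-fold lower and 4 not lower.

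The size of the difference depended on which cells were read. In cells with 500 to 1000 UMIs, members made up 43.6 of 10000 UMIs in the control (40.4 to 47.0, 216 cells) and 43.7 in Taf4IEC (41.8 to 45.7, 660 cells). At 1000 to 2000 UMIs the levels were 43.8 in 228 and 44.2 in 230 cells. At 2000 to 5000 UMIs Taf4IEC was the higher library, with 28.5 and 38.6. The libraries crossed from there on, with 22.6 and 24.1 at 5000 to 10000 UMIs and 22.8 and 16.5 at 10000 to 20000. In the range of 20000 to 40000 UMIs, 915 control cells had 48.6 (48.3 to 48.9) and 385 Taf4IEC cells 21.7 (21.5 to 22.0). Above 40000 UMIs there were 3 control cells and 203 Taf4IEC cells, at 17.9 and 20.6.

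**Figure D2:**
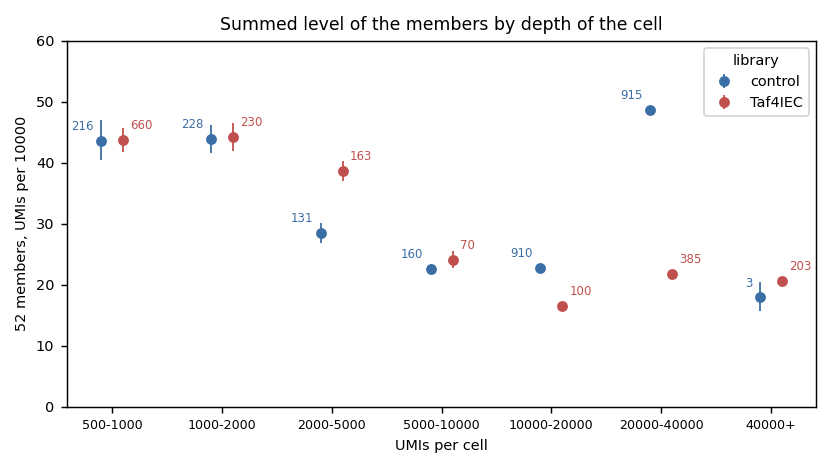
Summed level of the 52 members (UMIs per 10000, with 95% Poisson intervals) in cells grouped by their total UMIs, for the control and the Taf4IEC library; the number beside each point is the number of cells. The libraries lie together at about 44 below 2000 UMIs and apart at 48.6 and 21.7 between 20000 and 40000 UMIs.

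Values gene by gene were taken in shallow and in deep cells. In cells under 2000 UMIs, 46 members had at least 20 UMIs over both libraries, and their median log2 ratio was -0.01, beside 0.29 for all genes counted there. Only Ndc80, with 15 and 9 UMIs, was at least 2-fold lower among them, where 1.61% of all genes were, and 23 were not lower, where 70.4% of all genes were not. Of the 46, 36 had 20 UMIs in Taf4IEC by itself and 26 in the control by itself. The minimum thus favoured members high in Taf4IEC, and nothing is read from this median or from these counts. Mki67 was at 0.884 and 1.21 per 10000 in these shallow cells, and Top2a at 1.77 and 1.80. Hmgb2, at 6.99 and 4.06, and Ube2c, at 3.19 and 1.79, were among 5 members with intervals of the ratio wholly below 0. Another 5 had intervals wholly above 0. They were Gtse1 with 5 and 42 UMIs at 2.42 (1.08 to 4.11), Ckap2 with 9 and 53 at 1.90 (0.87 to 3.11), Psrc1 at 0.99 (0.17 to 1.87), Cenpf at 0.89 (0.22 to 1.61) and Tubb4b at 0.74 (0.54 to 0.94). Gtse1, Ckap2 and Psrc1 reached 20 UMIs in Taf4IEC but not in the control, so nothing is read from their ratios in these cells. Cenpf and Tubb4b reached it in each library. Without Tubb4b the members summed to 37.7 and 33.8 per 10000 in these cells. In cells with 20000 to 40000 UMIs, 40 of 52 members were at least 2-fold lower, where 5.32% of all genes were, and the median was -1.75. There Aurkb had 1245 and 51 UMIs (-3.66), Top2a 2.28 and 0.306 per 10000 (-2.90) and Mki67 1.38 and 0.286 (-2.27). Not lower at this depth were Psrc1 at 0.69 (0.50 to 0.87), Gtse1 at 0.21 (-0.13 to 0.55) and Tubb4b at 0.11 (0.08 to 0.15), 3 of 52, where 69.5% of all genes were not lower.

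Other measures moved with depth as well. Between 500 and 1000 UMIs, Malat1 was at 55.7 per 10000 in the control and 107 in Taf4IEC, against 38.9 and 66.9 at 20000 to 40000 UMIs, and mitochondrial genes took 4.38% and 3.56% of UMIs against 7.56% and 8.06%. In the same shallow cells the stem marker Olfm4 was at 5.53 and 2.40, the Paneth marker Lyz1 at 2.48 and 6.53 and the enterocyte marker Fabp1 at 2.80 and 4.79. Whether the members' UMIs in shallow cells came from dividing cells was not tested.

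Cells rich in mitosis transcripts were then found from the anchor genes alone, at 1 depth. Each cell was thinned to 2000 UMIs, and a cell with at least 3 anchor UMIs was called anchor-positive. Shallower cells, 444 in the control and 890 in Taf4IEC, were left out. The thinned shares thus hold only for cells with at least 2000 UMIs. In cells with 500 to 1000 UMIs the anchor genes stood at 7.76 per 10000 in the control and 7.62 in Taf4IEC. At 20000 to 40000 UMIs they stood at 9.07 and 2.08. The share of anchor-positive cells among those left out was not tested. Anchor-positive were 341 of 2119 control cells, or 16.1% (14.6 to 17.7), and 68 of 921 Taf4IEC cells, or 7.38% (5.78 to 9.27), a difference of -8.71 percentage points (-11.0 to -6.28). Without thinning the shares with at least 3 anchor UMIs were 39.3% of all control and 18.1% of all Taf4IEC cells. A deep cell reaches 3 UMIs more readily, and the median depth was 16749 UMIs in the control and 2254 in Taf4IEC. The part of depth in these unthinned shares was not tested. In enterocyte-like cells (defined below), which should not divide, 0 of 169 control and 0 of 128 Taf4IEC cells were anchor-positive, which allows shares of up to 1.78% and 2.34% at a limit of 3 counts, used here for every count of 0. No anchor UMI at all was seen in 60.4% of control and 74.9% of Taf4IEC cells.

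**Figure D3:**
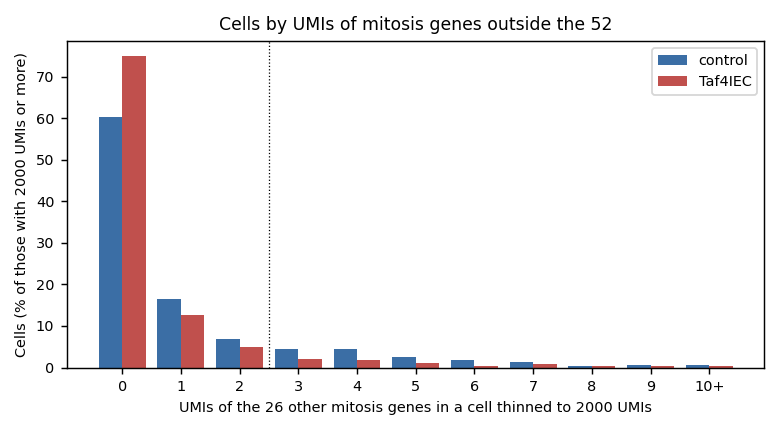
Share of cells by the number of UMIs from 26 mitosis genes outside the 52, after each cell with at least 2000 UMIs was thinned to that depth; the bar at 10 holds all higher counts, and the dotted line marks the limit of 3. Right of the line stand 16.1% of control and 7.38% of Taf4IEC cells.

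Within anchor-positive cells the libraries lay closer together. These cells were picked in both libraries by the same limit on other mitosis genes, so alike levels of the members are in part set by that choice. Whether dividing cells of the 2 libraries were alike was not tested. The members made up 105 of 10000 UMIs in the control and 98.7 in Taf4IEC, or 92.1 and 79.1 without Tubb4b. Per cell the level ran from 21.9 over a median of 100.02 to 227 in the control and from 27.2 over 102 to 227 in Taf4IEC, so the groups overlapped over almost their whole range. The median log2 ratio of the members was -0.17 (all genes 0.22), 0 of 52 were at least 2-fold lower, where 3.73% of all genes were, and 14 were not lower, where 68.3% were not. Of the 38 with a ratio below 0, 17 had intervals wholly below 0. The lowest ratios were those of Hjurp at -0.78 (-1.06 to -0.50), Aurkb at -0.73 (-1.03 to -0.43) and Nusap1 at -0.70 (-0.97 to -0.44). Hmgb2 was at 15.9 and 13.0 per 10000, Ube2c at 7.82 and 5.27, Top2a at 5.43 and 3.66 and Cdk1 at 3.12 and 2.41, each with the interval of the ratio below 0. So were Mki67, at 3.45 and 3.06, and Cdca8, at 2.45 and 2.07. Ccnb2, at 1.42 and 1.39, and Cks1b, at 1.99 and 1.96, differed by less than counting error.

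Some members were higher in Taf4IEC within anchor-positive cells. Ckap2 was at 0.693 per 10000 in the control and 1.39 in Taf4IEC, a ratio of 1.00 (0.76 to 1.24), which left it the one member at least 2-fold higher there. Psrc1 stood at 0.89 (0.55 to 1.21), Gtse1 at 0.71 (0.21 to 1.19), Tubb4b at 0.58 (0.52 to 0.64), Anp32e at 0.55 (0.38 to 0.72), Cdc20, the activator of the anaphase-promoting complex, at 0.50 (0.32 to 0.69) and Cbx5 at 0.22 (0.01 to 0.43). For the other 7 of the 14 members the interval included 0.

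In anchor-negative cells the members were lower again, at 21.0 per 10000 in the control and 16.7 in Taf4IEC. Their median log2 ratio was -1.01, 28 of 52 were at least 2-fold lower, where 5.04% of all genes were, and 6 were not lower, where 65.0% were not. Aurkb had 417 and 42 UMIs in them (-2.85), Cdca2 143 and 19 (-2.45), Ttk 127 and 17 (-2.44) and Top2a 1832 and 301 (-2.14). Gtse1 went from 74 to 193 UMIs there, 0.0235 and 0.0845 per 10000, a ratio of 1.85 (1.45 to 2.25). Psrc1 was at 1.03 (0.86 to 1.21) and Tubb4b at 0.92 (0.88 to 0.95), each further above 0 than in anchor-positive cells, and Ckap2 at 0.30 (0.05 to 0.56). Cells with 1 or 2 anchor UMIs count as anchor-negative, and may hold dividing cells that the limit missed.

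**Figure D4:**
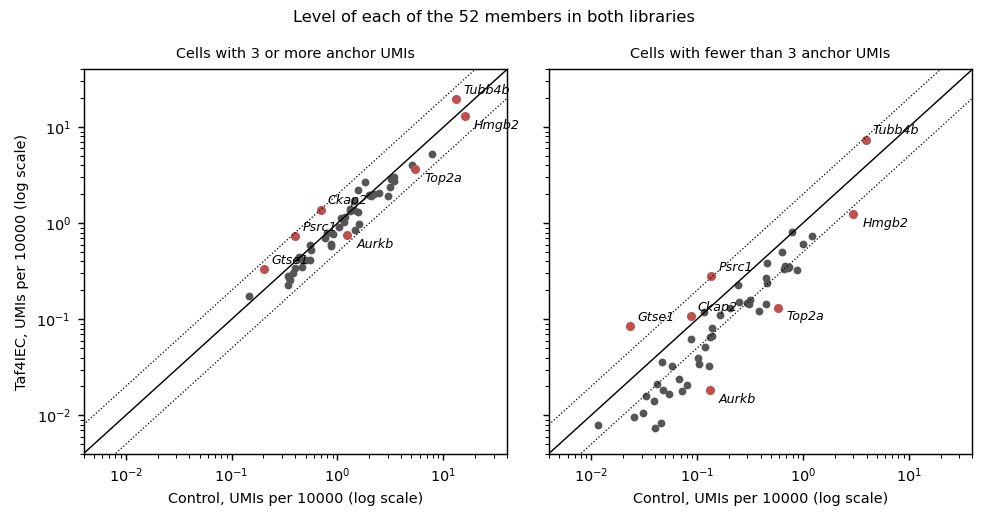
Level of each member (UMIs per 10000, log scales) in the control and in Taf4IEC, in anchor-positive cells (left: 341 and 68 cells) and in the other cells with at least 2000 UMIs (right); the solid line marks equal levels and dotted lines 2-fold. On the left no member lies below the lower dotted line; on the right 28 do.

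The members also differed in how closely they kept to dividing cells. In the control the level in anchor-positive over anchor-negative cells ranged from 1.83-fold for Ctcf to 19.6-fold for Nusap1, with a median of 7.72-fold, and in Taf4IEC the median was 14.2-fold, with 46 of 52 members more concentrated than in the control. Across the 52 genes, more concentration in the control went with a lower ratio over all cells (Spearman rho -0.68, Pearson r -0.59). This is a description across genes that share the same 2 libraries and cells. The 39 members at 4-fold or more in the control had a median ratio of -1.51, with 35 at least 2-fold lower, and the 13 others a median of -0.55, with 3 at least 2-fold lower. Gtse1 stood apart. It was 8.69-fold higher in anchor-positive cells of the control and 3.96-fold in Taf4IEC, and the share of its UMIs found in these cells was 68.8% and 19.2%. Tubb4b (3.35-fold and 2.65-fold) and Psrc1 (2.91-fold and 2.63-fold) were little concentrated in either library. Anchor-positive cells held 56.0% of all member UMIs of the control and 26.2% of those of Taf4IEC, among cells with at least 2000 UMIs.

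Cell types were then taken from marker genes. Each library was clustered alone after the cell cycle genes had been removed from the variable genes, and a cluster was named "-like" where at least 3 markers of a class reached 1.5 times the mean of the 2 libraries. Stem-like clusters held 989 control and 427 Taf4IEC cells, enterocyte-like 179 and 171, Paneth/goblet-like 302 and 142, and enteroendocrine-like 211 and 203. The tuft-like cluster held 15 Taf4IEC cells and had no control counterpart, so it was not compared. Unnamed were 882 control and 853 Taf4IEC cells, with medians of 3845 and 816 UMIs per cell. These names rest on the clustering, and several class results below changed with it.

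Of the named classes, stem-like cells had the highest level of the members in each library, 55.5 of 10000 UMIs in the control and 31.7 in Taf4IEC, and held 75.9% and 48.3% of all their UMIs. All 52 members had 20 UMIs there, 35 were at least 2-fold lower, where 5.22% of all genes were, and the median was -1.22. In this class Hmgb2 was at 8.67 and 3.67 per 10000, Ube2c at 3.48 and 0.956, Mki67 at 1.62 and 0.572 and Cdk1 at 1.55 and 0.480. Not lower were 5 of 52, where 68.3% of all genes were not. They were Psrc1 at 1.25 (1.07 to 1.43), Gtse1 at 1.24 (0.94 to 1.54), Tubb4b at 0.33 (0.29 to 0.37), Ckap2 at 0.23 (0.04 to 0.43) and Anp32e at 0.14 (0.04 to 0.24). At least 2000 UMIs were reached by 980 of 989 control but only 264 of 427 Taf4IEC stem-like cells. Of these, 28.9% (26.1 to 31.8) in the control and 14.0% (10.1 to 18.8) in Taf4IEC were anchor-positive. The Taf4IEC share came mostly from 231 cells of a deep cluster, 11.3% of them positive. In the shallow Taf4IEC cluster, 33 of 195 cells had the depth, and 33.3% of the 33 were positive.

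Different clusters held this class in the 2 libraries. In the control, members made up 117 of 10000 UMIs in a cluster of 257 cells led by Depdc1b, Pif1 and Cenpf, of which 77.6% of cells with the depth were anchor-positive, and 43.8, 30.7 and 18.8 in clusters of 226, 129 and 377 cells. The Taf4IEC clusters were one of 232 cells, at a median depth of 34947.5 UMIs, with 31.2, and one of 195 cells, at a median depth of 961 UMIs, led by Reg1 and histone genes, with 45.3. No Taf4IEC cluster of any class exceeded 46.1. The class median moved to -0.335 at a clustering resolution of 1.4 (263 Taf4IEC cells) and to -0.0532 when each cluster's markers were set against its own library (732 and 648 cells), and with a marker fold of 2 no Taf4IEC cluster was stem-like.

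**Figure D5:**
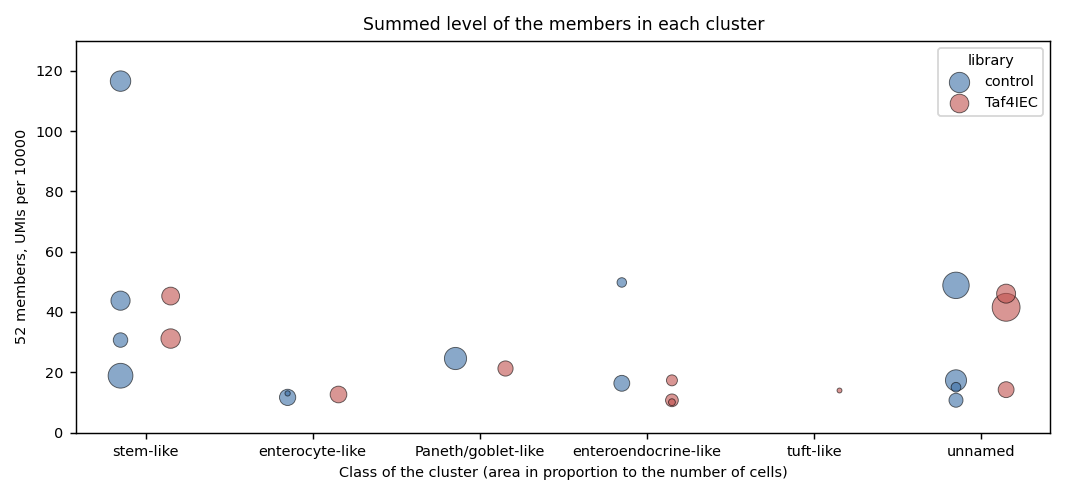
Summed level of the 52 members (UMIs per 10000) in each cluster, placed by the class its markers gave, for the control and the Taf4IEC library; the area of a point is in proportion to its number of cells. A control stem-like cluster of 257 cells stands at 117, and the highest Taf4IEC cluster at 46.1.

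In enterocyte-like cells the members made up 11.7 of 10000 UMIs in the control, the lowest class there, and 12.6 in Taf4IEC. Tubb4b alone gave 5.08 and 7.94 of these, and the other members 6.60 and 4.68. Mki67 had 7 and 11 UMIs there and Cdk1 38 and 25. Of the 25 members with at least 20 UMIs over both libraries, 3 were at least 2-fold lower, where 3.35% of all genes were, and 7 were not lower, where 51.8% were not. Of the 3, Tmpo went from 332 to 182 UMIs (-1.22), Ube2c from 39 to 23 (-1.11) and Cenpa from 17 to 5 (-2.12). The 7 were Cdc20, Rangap1, Cdca8, Psrc1, Tubb4b, Kif23 and Lbr, and only for Tubb4b, at 0.65 (0.56 to 0.73), did the interval lie above 0.

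Paneth/goblet-like cells held 24.8 of 10000 UMIs on members in the control and 21.6 in Taf4IEC, and 7.77% and 6.96% of those with the depth were anchor-positive. All 52 members were counted, 5 were at least 2-fold lower, where 6.14% of all genes were, and 9 were not lower, where 51.9% were not. The lowest were Aurkb with 96 and 21 UMIs (-1.47), Hjurp with 331 and 85 (-1.24) and Anln with 60 and 16 (-1.18). The 9 were Nek2, Gtse1, Bub1, Kif11, Kif20b, Ckap5, Psrc1, Tubb4b and Anp32e, from 0.04 for Nek2 to 0.91 (0.82 to 1.00) for Tubb4b, the 1 gene whose interval lay above 0. The median of -0.40 became 0.58 at a resolution of 1.4, so no direction can be given for this class.

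In enteroendocrine-like cells members made up 22.3 of 10000 UMIs in the control and 10.9 in Taf4IEC, or 17.8 and 7.37 without Tubb4b, and 7 of 161 control cells (4.35%, 1.77 to 8.75) but 0 of 141 Taf4IEC cells, which allows up to 2.13%, were anchor-positive. Cdk1 went from 100 to 16 UMIs (-3.06), Mki67 from 55 to 6 (-3.62), Ube2c from 254 to 67 (-2.34) and Hmgb2 from 512 to 163 (-2.07). Aurka had 24 UMIs and 1, a ratio of -5.01 (-10.4 to -2.39). Of the 36 members with 20 UMIs or more, 26 were at least 2-fold lower, where 3.67% of all genes were. Of the 36, 33 had 20 UMIs in the control by itself and 16 in Taf4IEC by itself. The minimum thus favoured members high in the control, and nothing is read from this count. Nor is anything read from the ratios of members that reached 20 UMIs only in the control, among them Cdk1, Mki67, Aurka and Psrc1. The 5 not lower, where 66.1% of all genes were not, were G2e3 at 0.97 (0.32 to 1.67), Rangap1 at 0.42 (0.03 to 0.83), Anp32e at 0.29, Ctcf at 0.24 and Ckap5 at 0.12. Tubb4b was lower in this class, with 4.53 and 3.58 per 10000 and a ratio of -0.34 (-0.48 to -0.21). Psrc1 had 27 and 17 UMIs (-1.09). A shallow control cluster of 56 cells (median depth 919 UMIs) had 49.8 and 5 of the 7 anchor-positive cells. Its leading genes included the Paneth marker Lyz1, the enteroendocrine markers Sct, Cck, Gcg and Ghrl, and the mitosis genes Cdkn3 and Pbk. The stem marker Olfm4 was at 7.79 per 10000 in it and at 1.42 in the larger control cluster of 155 cells. Whether it mixed cell types was not tested. In that larger cluster the members stood at 16.3, and in the Taf4IEC clusters between 10.1 and 17.3.

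In unnamed cells the members were at 18.1 of 10000 UMIs in the control and 20.9 in Taf4IEC, but without Tubb4b at 14.7 and 11.6. Anchor-positive were 28 of 513 control cells (5.46%, 3.66 to 7.79) and 23 of 265 Taf4IEC cells (8.68%, 5.58 to 12.7). They made up 8.21% and 33.8% of all anchor-positive cells. Of the 23, 22 lay in a Taf4IEC cluster of 221 cells that reached 2 stem markers of the 3 needed. The share given for stem-like cells thus depends on this cluster staying unnamed. The median log2 ratio of the 51 counted members was -0.20, and 39 of them had a ratio below 0. Of the 51, 2 were at least 2-fold lower, where 5.69% of all genes were, namely Hjurp at -1.18 and Bub1 at -1.13, and 12 were not lower, where 55.9% were not. Gtse1 had 23 and 70 UMIs, a ratio of 2.07 (1.37 to 2.81), Tubb4b 3.40 and 9.26 per 10000, a ratio of 1.45 (1.38 to 1.51), Ckap2 60 and 94 UMIs, a ratio of 1.11 (0.62 to 1.60), and Psrc1 142 and 196 UMIs, a ratio of 0.92 (0.61 to 1.25). The others were Dlgap5, Ect2, Kif11, Ckap2l, Cenpf, Kif2c, Anp32e and G2e3, from 0.02 to 0.82.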

How the data were processed

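The authors aligned the reads to mm10 with Cell Ranger 3.1 after bcl2fastq 2.17.1.14, removed unexpressed genes, and deposited raw UMI counts, with genes as rows and cells as columns, per the labels and the methods of the study. Their filter (200 to 6000 genes, under 15% mitochondrial reads) left all 2563 control and 1811 Taf4IEC barcodes of the files. They used Seurat 3.1.4.

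Counts were summed over cells in Python 3.11.15 (numpy 2.4.6, scipy 1.17.1, pandas 2.3.3) and divided by all UMIs of those cells. A gene needed 200 UMIs in the libraries together for a ratio, or 20 within a set of cells. Where a library had 0 UMIs, a floor of 3 counts over the set was used. Groups came from the sample titles. Clustering used Seurat 5.3.0 (R 4.3.3) with LogNormalize, 2000 variable genes less the cell cycle genes, regression on UMI count and mitochondrial percent, 20 components and resolution 0.9. A marker counted from 10 UMIs and 1.5 times the mean of both libraries. A cluster stayed unnamed where another class had more markers than its own among the 10 genes that led it, or where none of its own led while it was under 0.333 of its library's median depth or held a low-quality gene. Classes with at least 50 cells in each library were compared. No doublet caller was run, and cells of high UMI count were kept in the main setting. The interval of the ratio was tested on simulated Poisson counts, which hold no spread between cells, and the thinning on the Taf4IEC counts. The other steps were not tested in this way.

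The genes described in full were the 2 members with the most UMIs in each of 7 role groups, those not lower, and the 5 lowest (20 genes). The others were given in short, and Cdk1, Mki67 and others within sets of cells were chosen after their values were seen. The members, lists and rules were chosen with earlier results of these data known, so that lists known to move give no independent support. Alternatives changed the total, scaling, weight and depth of cells, clustering, naming, anchor limit and promoter window. Thinning to 1000, 2000, 5000 and 10000 UMIs and the ranges of depth were added after seeing the data. Depth, from 501 to 63809 UMIs per cell, limits what can be seen in shallow cells.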

Additional observations from a re-analysis of the deposited data

Results flagged for a closer look

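The log2 ratios of Psrc1 had opposite signs in 2 classes of cells, at least 2-fold in each, with the interval for counting error on 1 side of 0. They were 1.25 in stem-like cells (512 control and 491 Taf4IEC UMIs) and -1.09 in enteroendocrine-like cells (27 and 17 UMIs). In enteroendocrine-like cells Psrc1 reached the minimum count in the control by itself but not in Taf4IEC by itself. Nothing is therefore read from its ratio there, nor from the opposite signs. With 1 library per condition the difference between the classes was not tested.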

How the results depend on the processing

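The members' median over all cells depended on how cells of unlike depth were weighed. From -1.37, with 38 members at least 2-fold lower and 3 not lower, it became -0.22 (1 and 16) with each cell weighted equally, and with each cell thinned -0.11 (3 and 18) at 500 UMIs, -0.45 (10 and 10) at 1000, -0.74 (15 and 7) at 2000 and -1.18 (34 and 5) at 5000. It was -1.55 with mitochondrial, ribosomal protein, Gm42418 and AY036118 genes left out of the total and -1.09 (5 not lower) without the 5% of cells with the most UMIs. Equal weights turned Rangap1 to 0.19 and Lbr to 0.15, and thinning to 500 UMIs turned Aurkb to 0.0704, Lbr to 0.16 and Ckap5 to 0.32. The cause was not tested. In stem-like cells the median was -0.335 (5 at least 2-fold lower) at resolution 1.4, -0.0532 (2) with markers set against the same library and -1.0 without the 5% deepest cells. In Paneth/goblet-like cells it was 0.58 (0) at resolution 1.4, and the count was 10 with cycle genes in the clustering, 3 with 30 components and 11 with the smaller total. In enterocyte-like cells the count was 5 at resolution 1.4 and 7 with markers set against the same library. In enteroendocrine-like cells the median was -1.18 without the condition on leading genes. In unnamed cells the median was 1.39 (1) at resolution 0.5, -1.66 (39) at 1.4, -1.22 (33) with 30 components, -1.79 (40) with a marker fold of 2 and -4.06 (50) with markers set against the same library, and the count was 7 with cycle genes in, 8 in cells with at least 2000 UMIs, 4 with the smaller total and 1 without the deepest cells. The difference in anchor-positive cells was -3.75 points at 5 anchor UMIs and -6.08 without the deepest cells. No paired analysis was possible because each condition had 1 library.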
